A study of Saccharomyces cerevisiae with 31 samples.

Results

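Budding yeast settling from the early to the later part of a metabolic cycle was followed on 8 of the 31 arrays of a time series from Saccharomyces cerevisiae CEN.PK122. The 8 arrays were chosen by the phase angle in their labels alone, so no measured level entered the choice. An early window held 3 arrays at 89.01, 100.88 and 112.75 degrees, taken at 13.00 to 13.13 h, and a late window held 5 arrays at 124.62, 136.48, 148.35, 160.22 and 172.09 degrees, taken at 13.20 to 13.47 h. Both windows come from the same strain, in an aerated continuous culture with no added treatment, which cycled by itself about every 2 h. Samples were drawn 4 min apart, each went onto 1 array, and the labels name no genotype difference, drug or control sample. The labels describe 1 time series, treated here as 1 culture, so each window is a run of successive time points and not a set of replicate cultures. The p-values below therefore measure the spread among these arrays and say nothing of whether another cycle would look the same.

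In such cultures the cells move together between a respiratory and a reductive state, and transcripts for building ribosomes and amino acids alternate with transcripts of slow growth. The slow-growth programme of yeast includes the general stress genes, which are targets of the transcription factors Msn2 and Msn4, the heat shock chaperones, the reserve carbohydrates glycogen and trehalose, and autophagy. Separate programmes control the use of poor nitrogen sources, which GATA factors switch on when good sources are scarce, and the use of acetate and fats through the glyoxylate cycle. The late window had been called stress-like before this comparison. That name was set beside general stress genes, chaperones and trehalose genes, in lists chosen with earlier results of these data known.

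Levels are log2 intensities, quantile normalized over the S. cerevisiae probe sets, and a change is the mean log2 level of the late window minus that of the early window, so that 1 is a 2-fold rise. The median deposited intensity per array was 1287 to 1773 in the early and 1102 to 1376 in the late window, and precision is limited by how few arrays there are. The 3' minus 5' log2 signal of ACT1, a sign of RNA integrity, was 0.35 to 0.41 in the early and 0.37 to 0.44 in the late window. Poly-A spike controls split the arrays into a lower and a higher set by the number in their description. Of the early window, only the array at 89.01 degrees is in the lower set, and of the late window those at 160.22 and 172.09 degrees are. The reference genes ACT1 (actin) and TDH3 (a glycolytic dehydrogenase) changed by 0.03 ± 0.04 and -0.003 ± 0.05 (SE), with limma adjusted p of 0.607 and 0.971. PMA1, the main plasma membrane proton pump, changed by -0.10 ± 0.04 (limma adjusted p = 0.139), and ADH2, the alcohol dehydrogenase that consumes ethanol, rose by 0.18 ± 0.05 (limma adjusted p = 0.0412). These references move with the scaling: ACT1 and TDH3 changed by 0.38 and 0.37 under median centring, and the median of the 4 references relative to all probe sets was 0.0062 here and 0.32 with 1 constant per array.

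Transcripts moved in both directions in nearly equal number, and most of the movement was small. Of 5422 probe sets tested, 1091 (20.1%) differed between the windows in limma's moderated test at an adjusted p under 0.05: 545 (10.1%) were higher and 546 (10.1%) lower in the late window. The median size of change among them was 0.33, and 28 probe sets (0.516%) rose and 26 (0.480%) fell by at least 2-fold. The 12 largest rises included 3 members of the general stress list (TKL2, GRE1 and NQM1) and 2 of the chaperone list (SSA3 and HSP30), with FDH1, a formate dehydrogenase, first. The 12 largest falls included 6 members of the nitrogen catabolite list (DAL5, DUR3, OPT2, DAL2, UGA4 and DAL7) and 3 of the list of glyoxylate cycle, gluconeogenesis and acetate genes (ICL1, PCK1 and CRC1). In bulk RNA, fewer cells expressing a gene and less of its RNA per cell cannot be told apart. The counts depend on keeping the array at 100.88 degrees and on treating successive arrays as independent. Without that array, or with a serial correlation of 0.645 between neighbours, 0 probe sets were called by limma (1527 and 424 at an unadjusted p under 0.05). Without it the early window holds only its first and last arrays. The 87 called named genes all kept their direction. For nearly all of them the windows do not overlap, so leaving out an array could not turn it, and this is no check. Leaving out the array at 89.01 degrees gave 282 calls, and leaving out those at 136.48, 148.35, 160.22 and 172.09 degrees gave 484, 218, 397 and 573. Within the higher description numbers 0 were called by limma (1198 at an unadjusted p under 0.05). The lower ones leave 1 early array, so no count is given for them. The arrays of the windows did not overlap for 1591 probe sets (29.3%), 816 (15.0%) of them higher and 775 (14.3%) lower in the late window. On the deposited scale, where the median of all probe sets fell by 0.33, limma called 64 higher and 2016 lower, and with scaling to the hybridization spikes, where it fell by 0.13, it called 1815, of which 10.2% were higher; median centring gave 798 higher and 429 lower.

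The largest rise was of FDH1, which belongs to none of the lists, followed by the chaperone gene SSA3. FDH1, which encodes formate dehydrogenase, had levels of 10.56, 11.09 and 11.79 in the early window and of 12.53, 12.99, 13.30, 13.53 and 13.67 in the late window. Each array was above the one before it, and FDH1 rose by 2.05 ± 0.32 on the log2 scale, or 4.15-fold (95% CI 1.31 to 2.79 log2, limma adjusted p = 0.0165). SSA3, a cytosolic Hsp70 chaperone of stressed and stationary cells, had levels of 10.37, 11.39 and 12.15 early and of 12.76, 13.06, 13.29, 13.34 and 13.33 late. Its windows did not overlap, the last 3 arrays were almost level, and it rose 3.61-fold (1.85 ± 0.35 log2, limma adjusted p = 0.0176). TKL2, the minor transketolase of the pentose phosphate pathway, rose by 1.61 ± 0.33, from 9.54, 10.46 and 11.27 to 11.67, 12.01, 12.17, 12.21 and 12.12. NQM1, a paralogue of the transaldolase that acts beside transketolase, rose by 1.36 ± 0.26. GRE1, a stress-induced hydrophilin, rose by 1.47 ± 0.25, from 8.19, 8.77 and 9.34 to 9.85, 10.08, 10.32, 10.39 and 10.55.

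The other largest rises were of transport, membrane and less studied genes. IMA5, an isomaltase that cleaves sugar dimers, rose by 1.62 ± 0.30, from 7.60, 8.42 and 9.19 to 9.77, 9.96, 10.12, 10.17 and 10.13. PMA2, the minor isoform of the plasma membrane proton pump, rose by 1.42 ± 0.27, whereas its major isoform PMA1 did not pass the test. HSP30, a plasma membrane protein that restrains the proton pump under stress, rose by 1.32 ± 0.27. IZH4, a membrane protein linked to zinc metabolism, rose by 1.42 ± 0.25, and SHH3, a homologue of a succinate dehydrogenase membrane subunit, rose by 1.41 ± 0.28. HBT1, a protein of polarized cell morphogenesis, rose by 1.39 ± 0.24, and the small open reading frame YHR007C-A rose by 1.46 ± 0.21. The 12 largest rises had limma adjusted p of 0.0165 to 0.0196, and in all 12 every array up to 136.48 degrees was above the one before it. Within the higher description numbers the changes were smaller than within the lower ones (FDH1 1.49 and 3.04, SSA3 1.27 and 2.96, TKL2 1.08 and 2.62); the lower ones compare arrays farther apart in time.

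**Figure D1:**
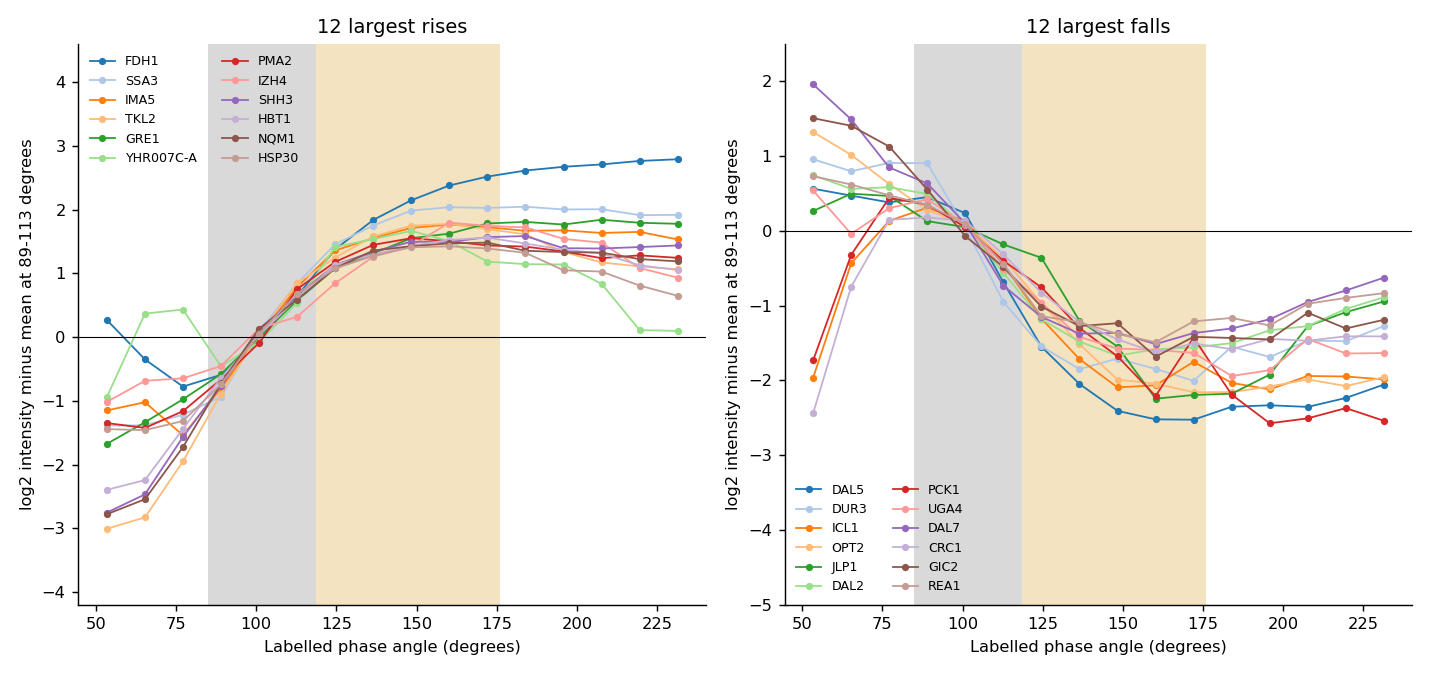
Log2 level minus the mean of the early window (vertical axis) against the labelled phase angle in degrees for the 12 largest rises (left) and 12 largest falls (right). Each line is 1 gene and each point 1 array; the grey band marks the early window (3 arrays) and the tan band the late window (5 arrays). All of these genes run in 1 direction from 89.01 to 136.48 degrees; after it many flatten, while JLP1 goes on falling to 160.22 degrees and PCK1 falls to 160.22 degrees and then rises.

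Of the 54 general stress genes tested, 17 rose and 1 fell, 7 of the rises were at least 2-fold, and the median change was 0.26 against 0.01 over all 5422 probe sets. PIR3, a cell wall protein, rose by 0.90 ± 0.14 (limma adjusted p = 0.0165). Named after their values were seen, CTT1 (cytosolic catalase) rose by 1.20, SIP18 (a hydrophilin) by 1.03 and GAD1 (glutamate decarboxylase) by 0.60, and the member that fell was NCE103 (carbonic anhydrase), by 0.30 on the log2 scale. Of 26 heat shock and chaperone genes tested, 10 rose and 0 fell at an adjusted p under 0.05 in limma (14 and 1 at an unadjusted p under 0.05), with a median of 0.19. Chosen after their values were seen, SSA4, another inducible Hsp70, rose by 1.18 and SSE2, an Hsp110 exchange factor, by 0.72. Of 7 trehalose genes tested, 1 rose. That was NTH2, a neutral trehalase, which rose by 0.22 ± 0.06 (limma adjusted p = 0.031), while the acid trehalase ATH1 changed by 0.22 ± 0.10 (limma adjusted p = 0.147). The share that rose was above that of all probe sets (10.1%) in the stress and chaperone lists, of which most members did not pass. For trehalose, 1 of 7 genes, a gene of trehalose breakdown, is near that share and gives no support to the stress name. These lists were chosen with earlier results of these data known, so their shares are no independent test of the name. The median centred level of the general stress list was -1.38, -0.75 and -0.24 at 53.41 to 77.14 degrees, 0.18, 0.55 and 0.73 in the early and 0.78, 0.84, 0.82, 0.80 and 0.71 in the late window. Most of its climb thus came before the late window. Relative to all probe sets the median change was 0.25 for general stress and 0.18 for chaperones, and 0.33 for both under scalings by 1 constant per array. On the deposited scale itself, where all probe sets fell, the list medians were -0.0039 and -0.0045.

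Reserve carbohydrate, redox and peroxisomal genes moved with them in part. GSY2, the main glycogen synthase, rose from 11.52, 11.93 and 12.39 to 12.76, 12.72, 12.79, 12.70 and 12.66, a change of 0.78 ± 0.16 (limma adjusted p = 0.0196). The late arrays lay close together and above every early array. GAC1, which targets protein phosphatase to glycogen synthase, rose by 0.27 ± 0.05. In all, 3 of 17 glycogen genes rose and 0 fell (7 and 1 at an unadjusted p under 0.05, median 0.17). Over all probe sets 10.1% passed in each direction, and in a list of 17 genes the excess of rises over that share is slight. Of 32 oxidative defence genes, 14 rose and 5 fell (median 0.10). The mitochondrial thioredoxin TRX3 rose by 0.44 ± 0.08 and the NADPH oxidoreductase OYE3 by 0.56 ± 0.10, whereas OYE2, GRX3, GLR1, GRX4 and TRR1, of the cytosolic flavin, glutathione and thioredoxin systems, fell by 0.23 to 0.48 (chosen after their values were seen). Of 19 genes of peroxisomal beta-oxidation, 6 rose and 3 fell, with a median of 0.34. SPS19, a reductase for unsaturated fatty acids, rose by 0.89 ± 0.19 from 11.62, 12.25 and 12.63 to 12.91, 13.00, 13.13, 13.13 and 13.10, and the peroxisomal lipase LPX1 rose by 0.29 ± 0.06. POT1, the thiolase that ends each round of beta-oxidation, rose by 1.28, and PCS60, ADR1 and ANT1 fell by 0.43, 0.22 and 0.20 (chosen after their values were seen). Among 23 peroxins, which build the organelle, PEX4 was 1 of 3 that rose (0.36 ± 0.10) and PEX19 the 1 that fell (-0.28 ± 0.06). The peroxin counts are near or below the 10.1% of all probe sets that passed in each direction.

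Of 36 proteasome genes, 7 rose and 0 fell (14 and 0 at an unadjusted p under 0.05, median 0.11): PUP1, a catalytic subunit, rose by 0.35 ± 0.05 and BLM10, an activator that caps the core particle, by 0.27 ± 0.06. Of 35 autophagy genes, 8 rose and 1 fell (median 0.10). ATG34, a receptor of the cytoplasm-to-vacuole route, rose from 11.37, 11.74 and 12.08 to 12.33, 12.52, 12.57, 12.53 and 12.56 (0.77 ± 0.14, limma adjusted p = 0.0168). ATG10, a ligase of the autophagy conjugation system, rose by 0.29 ± 0.05, and the member that fell was ATG2 (-0.31, named after its value was seen). Of 20 vacuolar hydrolases and their inhibitors, 3 rose and 3 fell, near the 10.1% of all probe sets that passed in each direction. On the deposited scale the medians of the proteasome, autophagy and vacuolar lists were -0.14, -0.25 and -0.17, against -0.33 for all probe sets. PAI3, the inhibitor of vacuolar proteinase A, rose by 1.23 ± 0.22 and CPS1, a vacuolar carboxypeptidase, fell by 0.50 ± 0.09 on the log2 scale.

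Genes for poor nitrogen sources fell most. DAL5, the allantoate permease, had levels of 13.06, 12.85 and 11.92 in the early window and of 11.06, 10.56, 10.20, 10.09 and 10.08 in the late window. No array was above the one before it, and DAL5 was 4.62-fold lower in the late window, a change of -2.21 ± 0.31 on the log2 scale (95% CI -2.91 to -1.51, limma adjusted p = 0.0165). DUR3, which imports urea and polyamines, went from 12.36, 11.49 and 10.50 to 9.91, 9.60, 9.74, 9.61 and 9.45 (-1.79 ± 0.35). Much of its fall lay inside the early window. DAL2 (allantoicase) changed by -1.49 ± 0.22, DAL7 (a malate synthase of allantoin breakdown) by -1.35 ± 0.26, UGA4 (the GABA permease) by -1.43 ± 0.22 and OPT2 (an oligopeptide transporter) by -1.73 ± 0.28. MEP2, an ammonium permease and sensor, went from 13.70, 13.68 and 13.55 to 13.08, 12.59, 12.62, 12.64 and 12.83. The early arrays lay together and the drop came between 112.75 and 136.48 degrees (-0.89 ± 0.11, limma adjusted p = 0.0165). In all, 18 of 38 nitrogen catabolite genes tested fell, 9 of them at least 2-fold, and 1 rose, with a median of -0.51. The riser was PTR2, a di- and tripeptide transporter (0.45, named after its value was seen).

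Of the 20 genes of the glyoxylate cycle, gluconeogenesis and acetate use, 11 fell and 2 rose, with a median of -0.36. Relative to all probe sets the median was -0.36, and -0.17 with 1 constant per array. ICL1, isocitrate lyase, the entry enzyme of the glyoxylate cycle, went from 13.43, 13.26 and 12.68 to 11.95, 11.41, 11.03, 11.06 and 11.37. It was lowest at 148.35 and 160.22 degrees and 3.38-fold lower in the late window (-1.76 ± 0.24, limma adjusted p = 0.0165). PCK1, the first committed enzyme of gluconeogenesis, went from 11.69, 11.39 and 10.94 to 10.59, 10.05, 9.67, 9.14 and 9.92 (-1.47 ± 0.30). CRC1, the mitochondrial carnitine carrier for acetyl units, changed by -1.32 ± 0.19. Of those that rose, CAT2, the carnitine acetyltransferase, and MDH3, the peroxisomal malate dehydrogenase, changed by 0.45 and 0.49 (chosen after their values were seen). Of 17 TCA cycle genes only IDH1 and IDH2, the subunits of isocitrate dehydrogenase, passed the test, near the overall share of 10.1%, and both fell (-0.55 ± 0.09 and -0.47 ± 0.08). IDH1 went from 13.78, 13.68 and 13.42 to 13.22, 13.07, 13.04, 13.05 and 13.00, with no overlap. Of 20 glycolytic genes 3 rose and 2 fell, near the 10.1% of all probe sets that passed in each direction. ENO1 (enolase) rose by 0.26 ± 0.06 and HXK2 (the hexokinase that also serves glucose repression) changed by -0.32 ± 0.08. The glycolysis median relative to all probe sets was 0.07, and 0.31 with 1 constant per array.

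Sugar transport and respiration were mixed. Of 19 hexose transport genes 5 rose and 4 fell (median 0.16). STD1, a regulator in glucose sensing, rose by 0.64 ± 0.12 and HXT3, a low-affinity transporter, by 0.25 ± 0.05. HXT17 fell by 2.00 on the log2 scale at a median intensity of 52.9; it has near-identical relatives, so its signal is uncertain, and it was chosen after its value was seen. Of 40 genes of the respiratory chain and ATP synthase 1 rose and 4 fell, close to or below the share of all probe sets that passed in either direction (10.1%). NDE1 and NDI1, the external and internal mitochondrial NADH dehydrogenases, changed by -0.26 ± 0.05 and -0.23 ± 0.06. Relative to all probe sets the medians of the respiratory chain and TCA lists were -0.04 and -0.02, and with 1 constant per array they turned to 0.12 and 0.16.

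Of 64 genes of amino acid synthesis other than the sulfur amino acids, 26 fell and 0 rose at an adjusted p under 0.05 in limma (32 and 3 at an unadjusted p under 0.05, median -0.20). LYS20, a homocitrate synthase that starts lysine synthesis, went from 13.25, 13.14 and 12.77 to 12.08, 11.87, 11.83, 12.08 and 12.17, and was 2.07-fold lower in the late window (-1.05 ± 0.12, limma adjusted p = 0.0165). Its lowest arrays were in the middle of the late window. The isoform LYS21 changed by -0.50 ± 0.07; the copies are similar, so probes may be shared. Of 37 sulfur and methionine genes 12 fell and 1 rose (median -0.21). SUL1, a sulfate permease, went from 12.86, 12.95 and 12.78 to 12.27, 11.83, 11.83, 12.01 and 12.12 (-0.85 ± 0.11), level early, lowest at 136.48 and 148.35 degrees and then climbing. MET17, which fixes sulfide into homocysteine, changed by -0.43 ± 0.06, and JLP1, which frees sulfite from sulfonates and stands in none of the lists, by -1.51 ± 0.40 (limma adjusted p = 0.0356). Within the late window JLP1 went from 8.00 to 6.17. The riser was MET31, a regulator of the pathway (0.28, named after its value was seen).

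Of 31 genes of purine and pyrimidine synthesis 15 fell and 1 rose, with a median of -0.44. ADE6, an enzyme of the purine pathway, went from 13.58, 13.44 and 13.37 to 13.01, 12.84, 12.74, 12.74 and 12.54, each array at or below the one before it (-0.69 ± 0.10, limma adjusted p = 0.0165). MTD1, a folate dehydrogenase, changed by -0.84 ± 0.12, and IMD3, an IMP dehydrogenase of guanine nucleotide synthesis, by -1.18 ± 0.20. URA10, a minor orotate phosphoribosyltransferase, rose by 0.62 (named after its value was seen). Of 18 cytosolic tRNA synthetases 7 fell and 0 rose (11 and 0 at an unadjusted p under 0.05, median -0.25); DED81, for asparagine, and THS1, for threonine, changed by -0.57 ± 0.10 and -0.44 ± 0.09. Relative to all probe sets the medians of the nitrogen, amino acid, sulfur, purine and tRNA synthetase lists were between -0.51 and -0.20. That range covers quantile normalization and scaling by 1 constant per array. All scalings of the latter kind give the same relative median, so they are not separate checks.

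The translation machinery did not move as one. Of 97 ribosome biogenesis genes 4 rose and 0 fell at an adjusted p under 0.05 in limma (10 and 6 at an unadjusted p under 0.05, median 0.09), from levels near the bottom of their cycle. Both adjusted counts lie below the share of all probe sets that passed in each direction (10.1%). NSR1, the nucleolin homologue, went from 9.56, 9.51 and 9.55 to 9.86, 9.74, 10.02, 10.06 and 10.09 (0.42 ± 0.08, limma adjusted p = 0.0187). The early arrays were level and the late arrays all higher. RRP9, of the U3 particle that cuts the ribosomal RNA precursor, rose by 0.46 ± 0.10, RRN3, the initiation factor of RNA polymerase I, by 0.46 ± 0.10, and RPC17, a subunit of RNA polymerase III, by 0.46 ± 0.13. REA1, the large ATPase that matures the 60S subunit and belongs to none of the lists, had levels of 13.03, 12.77 and 12.24 early and of 11.54, 11.46, 11.31, 11.19 and 11.47 late. It was among the 12 largest falls (-1.29 ± 0.16). Of 59 cytosolic ribosomal protein genes 11 fell and 0 rose (19 and 0 at an unadjusted p under 0.05), with a median of -0.10. Some ribosomal protein genes have several probe sets, of which only the brightest was used. For RPS8A, RPL2A and RPS11B a dimmer probe set passed as a fall and the brightest did not. For RPL20B and RPS26A only the brightest passed, so such calls depend on the probe set. RPL11A changed by -0.48 ± 0.08, with a near-identical copy that may share its probes, and RPS15 changed by -0.30 ± 0.04. RPS15 stood at 14.21 on all 3 early arrays, the same normalized value on each, so its early spread came out as 0. Under median centring RPS15 changed by 0.05 (limma adjusted p = 0.603). The ribosomal protein median relative to all probe sets was -0.11 and turned to 0.03 with 1 constant per array. Of 67 mitochondrial ribosomal protein genes MRPL50 and MRPS12 alone passed, and both rose (0.40 ± 0.09 and 0.24 ± 0.07). Among 32 genes of mitochondrial protein import 2 rose and 3 fell. TIM44, the motor anchor, and TIM12 changed by -0.36 ± 0.06 and -0.31 ± 0.06. The counts of both mitochondrial lists lie below the 10.1% of all probe sets that passed in each direction.

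Of 26 genes of mitosis and cell separation 14 rose and 0 fell at an adjusted p under 0.05 in limma (15 and 0 at an unadjusted p under 0.05), with a median of 0.22; on the deposited scale the median was -0.14, against -0.33 for all probe sets. EGT2, a wall protein of daughter cell separation, went from 12.14, 12.19 and 12.35 to 12.68, 12.67, 12.76, 12.94 and 12.90 (0.56 ± 0.08), and PCL9, a G1 cyclin expressed as mitosis ends, rose by 0.56 ± 0.08. CDC6, which licenses replication origins, went from 8.58, 8.72 and 8.91 to 9.33, 9.51, 9.56, 9.54 and 9.65 and rose 1.72-fold (0.78 ± 0.09, limma adjusted p = 0.0165). SWI5, the transcription factor of the mitotic exit genes, rose by 0.47 ± 0.07. Both stand in the list of 44 genes of DNA replication and G1/S, of which 3 rose and 7 fell (median -0.08). Over all probe sets 10.1% passed in each direction. GIC2, an effector of the polarity GTPase Cdc42 that belongs to none of the lists, was among the 12 largest falls (-1.32 ± 0.23). Of 9 histone genes 0 passed in limma (4 higher and 1 lower at an unadjusted p under 0.05); HHO1, the linker histone, and HTZ1, the H2A variant, changed by 0.16 ± 0.05 and 0.17 ± 0.06 (adjusted p of 0.0641 and 0.0687).

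Of 23 cell wall mannoproteins 6 rose and 1 fell (median 0.20), and PIR1 rose by 0.35 ± 0.05. Of 24 ergosterol genes 5 fell and 0 rose (6 and 2 at an unadjusted p under 0.05): ERG4, the last enzyme of the pathway, went from 13.10, 12.84 and 12.67 to 12.35, 12.17, 11.96, 11.88 and 11.82, each array below the one before it (-0.83 ± 0.14), and ERG26 changed by -0.45 ± 0.09. The ergosterol median of -0.03 relative to all probe sets turned to 0.04 with 1 constant per array. Fatty acid and phospholipid genes were split, with 5 of 27 up and 5 down. OLE1, the fatty acid desaturase, rose by 0.32 ± 0.06 and CKI1, choline kinase, changed by -0.33 ± 0.06. Of 34 iron and phosphate genes 6 fell and 1 rose (median -0.15): GIT1, a glycerophosphoinositol permease, and FET3, the iron uptake oxidase, changed by -0.69 ± 0.14 and -0.53 ± 0.11. The counts of these lists stand against 10.1% of all probe sets that passed in each direction.

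Regulators of stress and carbon use gave 10 that rose and 2 that fell of 49 (median 0.04), against 10.1% of all probe sets in each direction. MIG2, a glucose repressor, rose from 6.54, 6.53 and 6.71 to 6.90, 7.37, 7.32, 7.33 and 7.23 (0.64 ± 0.11), and IFH1, a coactivator of ribosomal protein genes, by 0.49 ± 0.11. CRF1, a corepressor of those genes, rose by 1.13 (named after its value was seen). Of 24 early meiotic genes 2 rose and 1 fell, again near or below 10.1%. IME1, the master regulator of entry into meiosis, rose by 0.20 ± 0.04 and SPS4 changed by -0.57 ± 0.16 (limma adjusted p = 0.0187 and 0.0392).

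**Figure D2:**
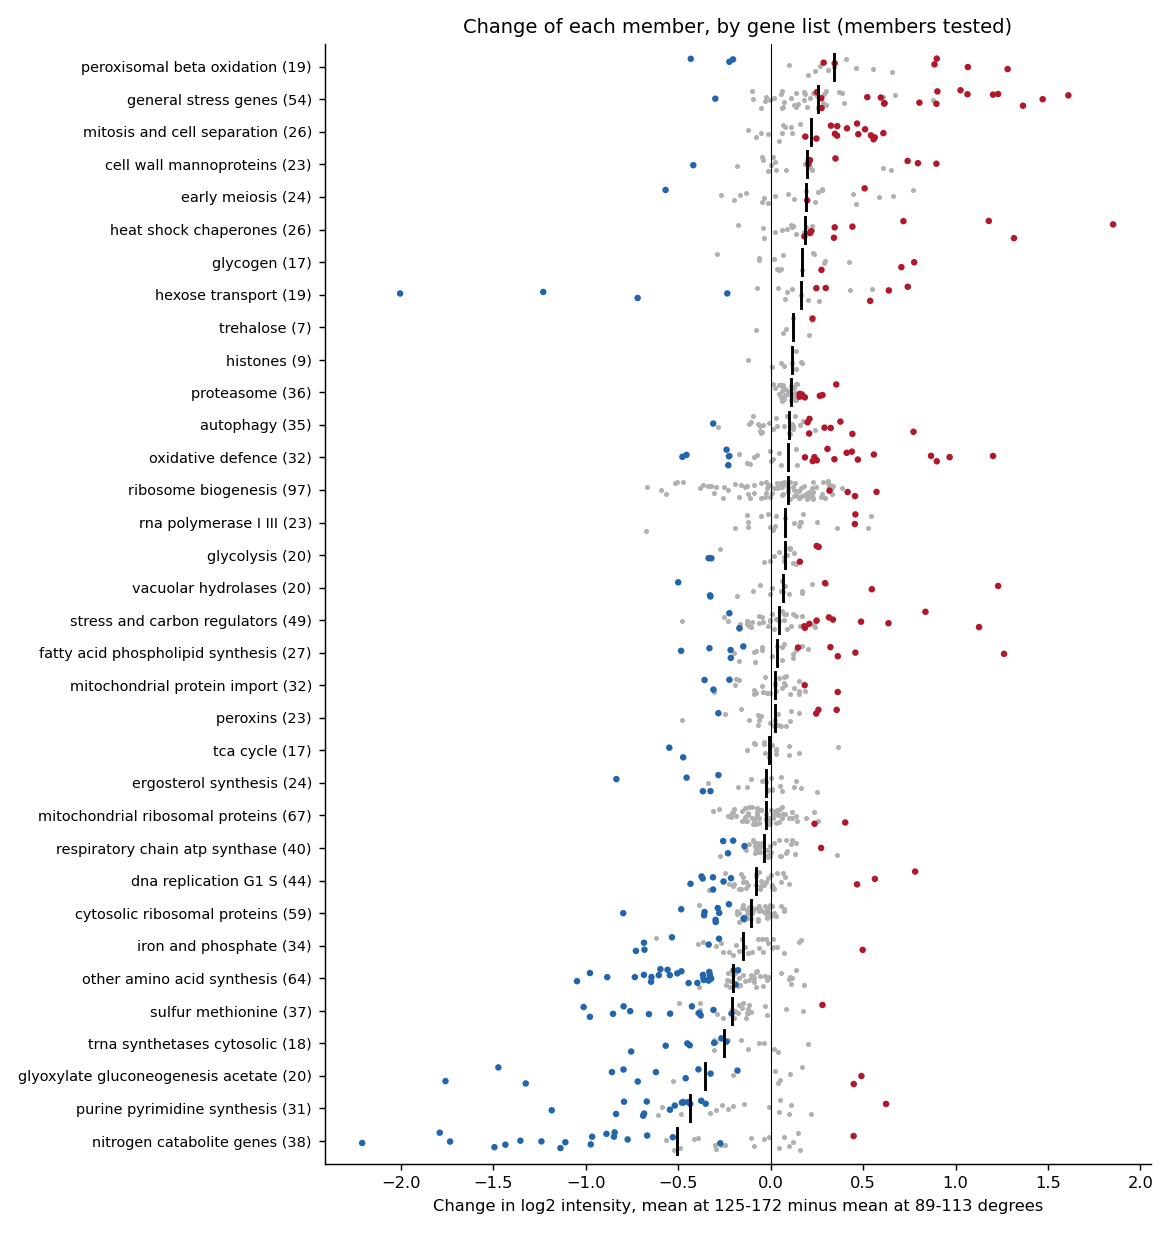
Change in log2 level from the early to the late window (horizontal axis) for each tested member of the 34 gene lists (vertical axis, members tested in brackets). Each point is 1 gene, red where it rose, blue where it fell and grey where it did not pass limma's test; the black bar is the list's median, which runs from -0.51 for nitrogen catabolite genes to 0.34 for peroxisomal beta-oxidation.

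The change was spread over the approach to the late window. Over the 5422 probe sets, the root mean square log2 distance to the mean of the late window was 0.409 at 89.01, 0.297 at 100.88 and 0.223 at 112.75 degrees. The late arrays themselves stood at 0.168 to 0.221 from the mean of the other late arrays, so the array at 112.75 degrees lay about as far off as the first and last of them. Among the 545 probe sets that rose, the median change was 0.21 across the early window, from 89.01 to 112.75 degrees. It was 0.15 over the step into the late window, from 112.75 to 124.62 degrees, and 0.08 across the late window, from 124.62 to 172.09 degrees. Among the 546 that fell those medians were -0.22, -0.14 and -0.11. The spans are unequal: the step into the late window is the shortest, and per degree its median change was the largest in both sets. Neighbouring arrays stood 0.241, 0.219, 0.215, 0.219, 0.216, 0.217 and 0.223 apart from 89.01 to 172.09 degrees, so the distance from 1 array to the next did not shrink inside the late window. The called probe sets were chosen on the comparison of the same arrays, so the steps are a description. All of the 12 largest rises and 12 largest falls ran in order over the 5 arrays up to 136.48 degrees, and 4 and 3 of them over all 8.

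**Figure D3:**
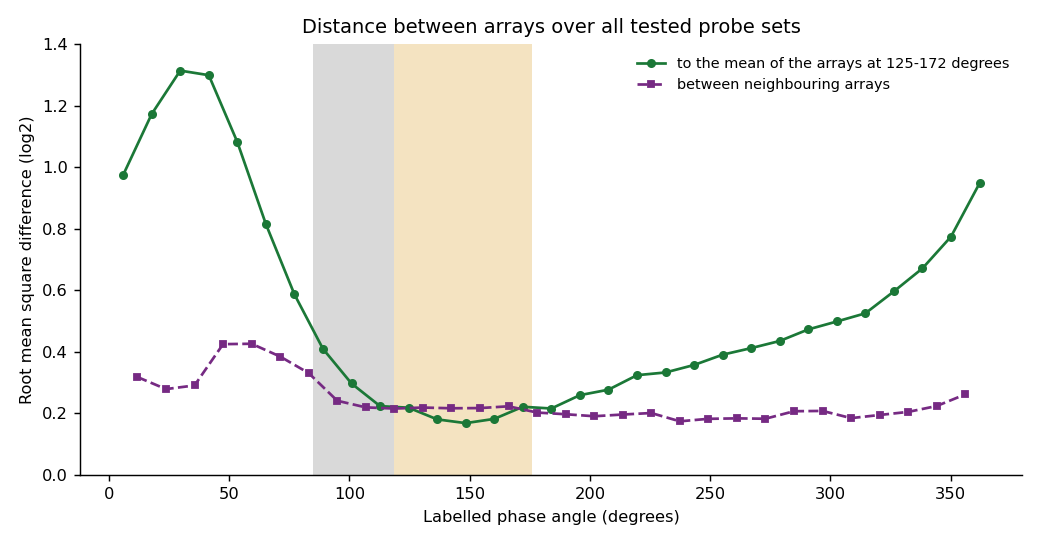
Root mean square log2 distance over 5422 probe sets (vertical axis) by labelled phase angle in degrees, to the mean of the late window and to the next array. Each point is 1 array; the distance to the late window falls from 0.409 to 0.223 across the early window and reaches its lowest value, 0.168, at 148.35 degrees.

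Lists reached their turning points at different angles. The median centred level of the sulfur list was -0.17, -0.31 and -0.54 in the early window and -0.84, -0.88, -0.79, -0.67 and -0.46 in the late window, so it turned at 136.48 degrees. The nitrogen list went from 0.31, -0.02 and -0.33 to -0.60, -0.68, -0.69, -0.59 and -0.54. The ribosome biogenesis list was lowest at 112.75 and 124.62 degrees, at -1.44 and -1.45, and had come back to -0.95 at 172.09 degrees. Mitochondrial ribosomal proteins crested at 0.62 at 124.62 degrees and had come down to 0.25 at 172.09 degrees, so their window median hardly changed (-0.03) while their level rose and fell within the 8 arrays. The purine and pyrimidine list was still falling at the end of the late window, at -0.55.

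**Figure D4:**
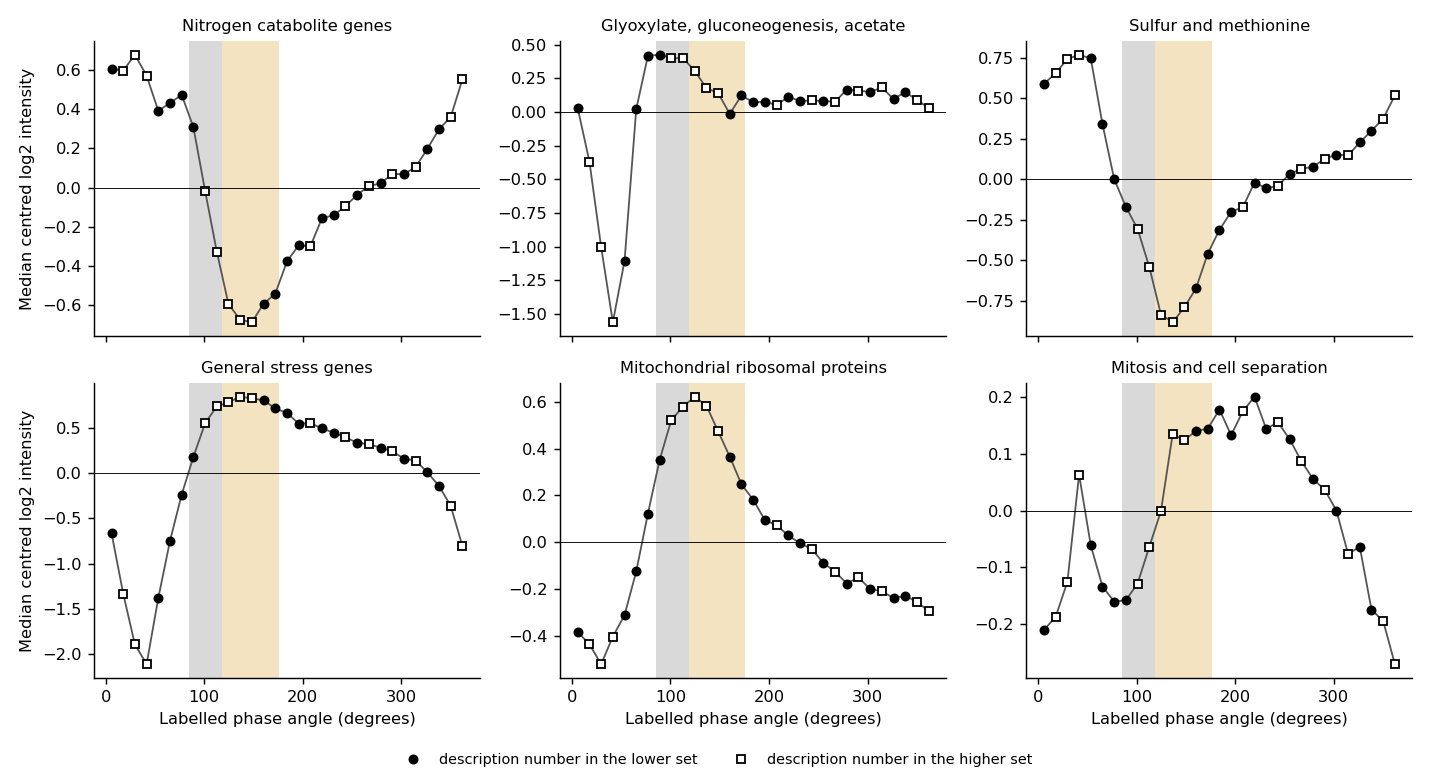
Median centred log2 level of 6 gene lists (vertical axes) on all 31 arrays against the labelled phase angle in degrees. Filled circles are arrays with lower and open squares those with higher description numbers; the grey and tan bands mark the early and late windows. Within the late window the sulfur list turns at -0.88 and climbs to -0.46 while the nitrogen list stays between -0.69 and -0.54.

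The step was next set against the one before it, from the 3 arrays at 53.41 to 77.14 degrees to the early window, and the one after it, to the 5 arrays at 183.96 to 231.43 degrees. Both contrasts share arrays with the comparison above and carry the description number set as a term. The middle arrays of the windows stood at 65.28, 100.88, 148.35 and 207.69 degrees, so each step is longer than the one before it. The contrasts do not allow for this, and a gene changing at a constant rate also gives a contrast other than 0. For the step before, 0 of 5422 probe sets (0%) were called by limma, with 1202 at an unadjusted p under 0.05. That count rests on the array at 77.14 degrees and on the pool of arrays: without that array limma called 1725, and with all 31 arrays in the fit 1596, of which 823 were positive and 773 negative. For the step after, limma called 1246 (23.0%). Of these 650 (12.0%) were positive, the level of the late window standing above the midpoint of its neighbours, and 596 (11.0%) negative. Without the array at 160.22 degrees limma called 2, and without those at 100.88, 136.48, 172.09 and 207.69 degrees 374, 815, 584 and 651. With serial correlation it called 0 (385 at an unadjusted p under 0.05), and with all 31 arrays in the fit 565. The split moved with scaling, to 1003 positive and 540 negative under median centring and to 49 and 3010 on the deposited scale.

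A positive contrast with the step after is given by a gene that came down after the late window and by one that rose into it and then levelled. A gene that fell at a constant rate throughout also gives one, as the step out is longer than the step in. ALD3, a stress-induced aldehyde dehydrogenase, had window means of 8.47, 9.54 and 8.38 in the early, late and following windows, a contrast of 2.08 ± 0.40 with the number set as a term (limma adjusted p = 0.0131). YHR007C-A had means of 7.14, 8.61 and 7.81 (contrast 2.15 ± 0.42, limma adjusted p = 0.0134). TKL2 (1.89 ± 0.47) and SSA3 (1.65 ± 0.46) differed in what followed: TKL2 went from 12.04 to 11.69, and SSA3 from 13.16 to 13.28, a plateau. PAU3, of a multigene family whose members share this probe set, had a contrast of 1.84 ± 0.41 and is uncertain. Of 54 general stress genes 32 were positive and 0 negative in limma, as were 25 and 0 of 67 mitochondrial ribosomal protein genes, 12 and 0 of 35 autophagy genes and 8 and 0 of 17 glycogen genes.

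A negative contrast is given by a gene that fell and then climbed or levelled. It is also given by one that rose as fast or faster after the late window than into it. MET3, ATP sulfurylase, which activates sulfate, had means of 12.07, 11.28 and 12.22 (contrast -1.71 ± 0.27, limma adjusted p = 0.0119). Its early level was regained in the following window. DAL5 (-2.16 ± 0.43), DUR3 (-2.01 ± 0.47), DAL2 (-1.73 ± 0.33) and IMD3 (-1.73 ± 0.32) fell into the late window and then levelled or climbed: DAL5 went from 10.40 to 10.34 and IMD3 from 11.05 to 11.65. Of 37 sulfur genes 27 were negative and 0 positive, of 38 nitrogen catabolite genes 24 and 1, of 64 other amino acid genes 37 and 0, of 31 purine and pyrimidine genes 18 and 2 and of 18 tRNA synthetases 13 and 0. The negative contrasts also took in 25 of 97 ribosome biogenesis genes and 22 of 59 cytosolic ribosomal protein genes, with 0 positive in either list. The median level of the ribosome biogenesis list climbed both into and after the late window, from -1.44 at 112.75 to -0.95 at 172.09 and -0.36 at 231.43 degrees.

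**Figure D5:**
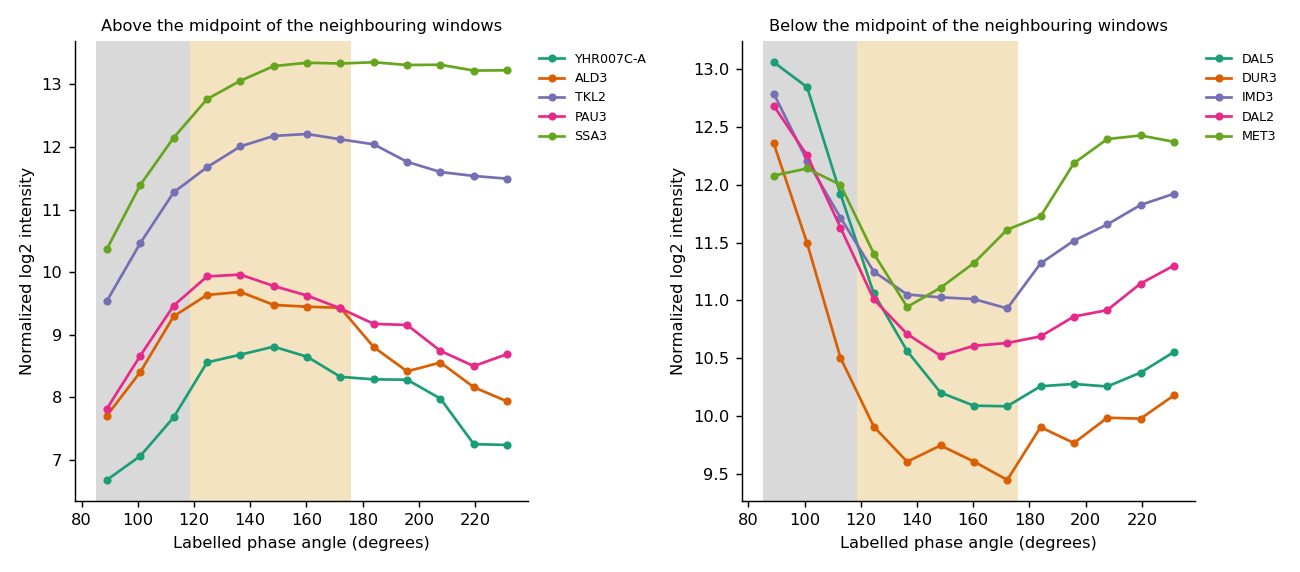
Normalized log2 level (vertical axis) against the labelled phase angle in degrees, from 89.01 to 231.43, for the 5 genes with the largest positive (left) and the 5 with the largest negative (right) contrast between the step into and the step out of the late window. Each point is 1 array; the grey and tan bands mark the early and late windows. ALD3 comes back to its early mean of 8.47 (8.38 after the late window), SSA3 stays up at 13.28, and MET3 regains 12.22.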

How the data were processed

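Arrays were Affymetrix Yeast 2.0. Per the labels, oligo(dT)-primed cDNA was transcribed into biotinylated cRNA and hybridized. The authors deposited linear intensities per probe set, from 0.1 to 24502, computed by the Affymetrix software GCOS according to the submitters' processing notes. Neither its version nor its scaling target is given in the sources used here. Here the deposited intensities were taken to log2 and quantile normalized over the S. cerevisiae probe sets of all 31 arrays with limma 3.58.1 in R 4.3.3. Of 10928 probe sets, 5498 had 1 gene symbol of S. cerevisiae. Names came from the platform annotation and a gene table for assembly R64 of strain S288C, which updated 12 symbols; CEN.PK122 is another strain, and no source used here names the probes' genome build. The 76 whose median intensity did not exceed 17.04 (percentile 95 of the medians of other organisms' probe sets) were dropped, and 5422 were tested for 5382 genes. For the 39 genes measured more than once, the brightest probe set was used.

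Windows were compared with limma's lmFit and eBayes, two-sided, with Benjamini-Hochberg adjusted p over the 5422 probe sets and a threshold of 0.05. The 2 contrasts with neighbouring windows carry the description number set (lower or higher) as a term. Poly-A minus hybridization spikes was -4.37 to -3.68 on the log2 scale for 16 arrays and -5.41 to -4.78 for 15; the meaning of the numbers is not stated. Members and lists were chosen with earlier results of these data known. The 34 lists hold 1137 memberships, 1111 of them tested. A list's level on an array is the median over members of log2 levels centred on each gene's mean over all 31 arrays. Genes named are the 12 largest rises and falls with an adjusted p under 0.05, a median intensity over 100 and windows that do not overlap, per list the 2 members of smallest p, the 5 largest differences each way in the other contrasts, and 4 references; others are marked. Alternatives covered scaling, filters, a log2 offset of 16, the arrays fitted, serial correlation, the number sets and each array left out. The serial correlation of 0.645 is the median lag 1 correlation of residuals after 1 sine wave per cycle was fitted over all 31 arrays. Cycle shape that such a wave does not follow therefore enters it. Scripts were tested on simulated data. Figures used matplotlib 3.10.9 and Python 3.11.15.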

Additional observations from a re-analysis of the deposited data

Results flagged for a closer look

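Within the 5 arrays of the late window, 93 named genes and the gene lists, 128 series in all, were searched for 1 array standing apart from the other 4 by Dixon's ratio above 0.71. Chance flags about 1 in 20 groups, and 7 stood apart. ATG34 was low at 124.62 degrees, at 12.33 against 12.52 to 12.57 on the others. The mitosis and cell separation list was also low on that array, at -0.0006 against 0.12 to 0.14. At 172.09 degrees HXT3 was high at 10.03 against 9.95 to 9.96, IME1 high at 11.46 against 11.37 to 11.40, and MRPS12 low at 13.08 against 13.22 to 13.27. At 148.35 degrees the cell wall list was high at 0.17 and the fatty acid and phospholipid list low at -0.19. The arrays at 124.62 and 172.09 degrees are the first and last of the window.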

How the results depend on the processing

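For the comparison of both windows, limma called 1091 as reported, 2080 on the deposited scale, 1815 with scaling to the hybridization spikes, 0 with serial correlation, 0 within the higher description numbers, and 0 to 1564 with each array left out in turn. For the contrast with the step before, 0 became 1596 with all 31 arrays in the fit and 0 to 1725 with each array left out. For the contrast with the step after, 1246 became 3059 on the deposited scale, 2186 with spike scaling, 565 with all 31 arrays, 0 with serial correlation and 2 to 1788 with each array left out. The cause was not tested, beyond the fewer arrays of some fits. Other settings stayed within 1.5 times of each count. Of 87 called named genes, 87 kept their direction under every setting except median centring (86) and the deposited scale (80). In many settings that was fixed in advance. Leaving out arrays cannot turn a gene whose windows do not overlap, as held for nearly all 87. Filters and the fit to all 31 arrays leave the size of change as it was. Of the 87, 87 stayed called with the number set as a term, 73 with all 31 arrays, 60 on the deposited scale and 0 with serial correlation. Under median centring RPS15 turned to 0.050 and TDH3 to 0.37, and the medians of the cytosolic ribosomal protein and respiratory chain lists to 0.076 and 0.17. On the deposited scale, where all probe sets fell by 0.33, HXT3 turned to -0.12, GAC1 to -0.043, NTH2 to -0.14, LPX1 to -0.034, BLM10 to -0.069, ATG10 to -0.056 and IME1 to -0.16. List medians there turned to -0.021 for glycolysis, -0.12 for hexose transport, -0.12 for glycogen, -0.12 for trehalose, -0.0045 for chaperones, -0.0039 for general stress, -0.10 for oxidative defence, -0.14 for the proteasome, -0.25 for autophagy, -0.17 for vacuolar hydrolases, -0.080 for histones, -0.14 for mitosis and cell separation, -0.060 for the cell wall, -0.29 for regulators and -0.16 for early meiosis. With spike scaling, autophagy turned to -0.049 and regulators to -0.086. Lists are named here only where the reported median exceeded the standard deviation of the list's level over the late arrays. Others below that limit, such as ribosome biogenesis, also changed sign on the deposited scale and with spike scaling. No paired analysis was possible because the labels give no replicate numbers. No probe set's level was set against another's, and with 3 and 5 successive arrays of 1 culture, small changes were not detectable where they fall within the arrays' spread.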
